A study of Mus musculus with 12 samples.

Results

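The clustered replication-dependent histone genes are described here in the mouse left atrium (LA). They were taken as all gene names of the deposited count table that begin with Hist1h, Hist2h, Hist3h or Hist4h and had at least 1 count in any library. Of 70 such names, 49 were counted and are the members, among 29835 names with a count and 54658 names in all. They comprise 6 of 6 H1 names, 9 of 20 H2A names, 15 of 19 H2B names, 9 of 12 H3 names and 10 of 13 H4 names. By name, 39 members are Hist1 genes of chromosome 13, 6 are Hist2 genes of chromosome 3, 3 are Hist3 genes of chromosome 11 and 1 is a Hist4 gene of chromosome 6 (GRCm38). The Hist1 names lie at chr13:21715763-23934851, except Hist1h2al, a processed pseudogene at chr13:51202727-51203065 outside the cluster. Only 28 members reached 10 counts over all 12 libraries.

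RNA was sequenced from the whole LA of 6 iNICD mice (αMHC-rtTA; tetO-NICD, 3 females and 3 males) and 6 littermate controls carrying αMHC-rtTA alone (4 females and 2 males), with 1 library per LA. In iNICD mice the Notch1 intracellular domain (NICD) is expressed under a tetracycline operator once doxycycline activates rtTA, a transactivator driven in cardiomyocytes by the αMHC promoter. Both groups were 2 to 3 months old, ate doxycycline chow for 3 weeks and had no washout, so the transactivator and the drug are common to both. Libraries held 21432632 to 27182038 counts. Notch1 had 2335 to 3311 counts in controls and 71187 to 107667 in iNICD, in accord with every label. The libraries that stood apart were control 5, which had the lowest summed histone level, and iNICD 1 and iNICD 3, in which cycling genes were high.

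Replication-dependent histone genes supply the core histones H2A, H2B, H3 and H4, which form the nucleosome, and the linker histone H1, which binds DNA between nucleosomes. Most of them have no introns and end in a short stem-loop instead of a poly(A) tail. The stem-loop binding protein Slbp holds this structure while the U7 small nuclear ribonucleoprotein, with Lsm10 and Lsm11 as its specific subunits, directs cleavage just after it, and the mRNA is abundant only while DNA is replicated. In differentiated tissue some members instead continue past the stem-loop to a poly(A) site. Whether NICD changes these transcripts bears on the study's question of cell cycle and DNA content in atrial cardiomyocytes.

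The stem-loop is shown for 5 of the 9 most counted members, because the annotated transcript runs far past it in some and stops sooner after it in others. The 16 bases of the stem-loop are in capitals, read 5′ to 3′ on the transcript and flanked by 5 bases on each side, from GENCODE M21 transcripts (GRCm38).
Hist1h1c: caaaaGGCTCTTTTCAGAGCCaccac
Hist1h2be: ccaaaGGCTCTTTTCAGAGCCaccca
Hist3h2a: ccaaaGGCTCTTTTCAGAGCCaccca
Hist1h4i: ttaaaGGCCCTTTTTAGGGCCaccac
Hist1h4h: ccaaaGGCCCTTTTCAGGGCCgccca
The annotated transcript of Hist1h1c, which encodes a linker histone, runs 840 bases past this stem-loop, that of the H2B gene Hist1h2be 1861 bases and that of the H2A gene Hist3h2a 1643 bases. Transcripts of the H4 genes Hist1h4i and Hist1h4h run 330 and 46 bases past it. The search was for GGNNNTNTNNANNNCC, with the 6 outer bases on each side pairing, within 100 bases after the stop codon on the transcript strand. A match was present in 44 of the 54 clustered histone names with an annotated coding transcript that continues past the stop codon (81.5%), and in 3 of 20966 other gene names (0.0143%). One of those 3 was H2afx, an H2A variant gene. The form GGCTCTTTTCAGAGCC occurred in 26 names, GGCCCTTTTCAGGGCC in 7 and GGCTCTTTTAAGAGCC in 6. No match lay in this window for the H2B genes Hist2h2be and Hist1h2bc, the second of which is annotated with 2 exons.

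Many H2A and H2B genes lie head to head and share the sequence between their starts. Of 15 divergent pairs of clustered histone names within 1000 bases, all but Hist1h2bh with Hist1h3f joined an H2A and an H2B gene. The shared stretches of the pairs whose H2B gene had the most counts are shown from 250 bases before to 50 after the H2A start (RefSeq, GRCm38.p6, minus strand, toward the H2A gene). Capitals mark the octamer ATTTGCAT, the TATA box TATAAA and the CCAAT box CCAAT, each searched on both strands.
Hist2h2ac at chr3:96220831-96221130: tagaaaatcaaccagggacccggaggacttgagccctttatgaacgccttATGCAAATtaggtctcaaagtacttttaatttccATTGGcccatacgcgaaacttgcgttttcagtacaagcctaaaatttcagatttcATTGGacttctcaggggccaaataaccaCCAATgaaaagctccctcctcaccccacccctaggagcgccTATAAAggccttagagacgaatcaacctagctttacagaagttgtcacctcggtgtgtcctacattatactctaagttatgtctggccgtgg
Hist1h2ac at chr13:23683910-23684209: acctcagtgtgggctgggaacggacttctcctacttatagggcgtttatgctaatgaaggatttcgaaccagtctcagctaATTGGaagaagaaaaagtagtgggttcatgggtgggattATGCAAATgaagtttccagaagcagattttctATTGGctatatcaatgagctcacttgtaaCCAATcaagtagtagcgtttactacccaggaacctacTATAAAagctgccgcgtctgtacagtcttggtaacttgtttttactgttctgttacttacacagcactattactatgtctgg
Each stretch held 1 octamer, 1 TATA box and 3 CCAAT boxes. Over the 61 clustered histone names with a promoter in the table, the octamer was present in 14 (23%), against 1.97% of 27025 genes. It lay in 7 of 17 H2A and 7 of 16 H2B promoters and in 0 of the 6 H1, 10 H3 and 12 H4 promoters. A CCAAT box was present in all 49 H1, H2A, H2B and H3 promoters and in 3 of 12 H4 promoters, against 41.1% of all genes. In these pairs the counts were unequal: Hist2h2be, 239 bases from Hist2h2ac, had 6726 counts and Hist2h2ac had 2. Hist1h2bc, 251 bases from Hist1h2ac, had 4611 counts and Hist1h2ac had 200. The share of 50-base windows found in no other annotated gene was also unequal in the first pair, at 100% for Hist2h2be and 45% for Hist2h2ac, and was 69.4% for Hist1h2bc and 85.9% for Hist1h2ac. The pairs were chosen for the count of their H2B gene. Of all 15 pairs, 3 had both genes at 0, 7 had 1 gene at 0 and 5 had both counted, and in 8 neither gene reached 10 counts.

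Clustered histone transcripts were a small part of each library. The 49 members together had 1699 to 2981 counts in control libraries and 1973 to 2780 in iNICD libraries, or 0.006849% to 0.01272% of all counts. Hist1h1c alone gave 37.3% of the 29009 member counts, Hist2h2be 23.2%, Hist1h2bc 15.9%, Hist3h2a 7.85% and Hist1h2be 6.29%, and these 5 members made up 90.5%. All 5 are among the 15 members with more than 1000 bases of annotated exon, which held 96.2% of the counts. The 20 members whose transcript runs more than 100 bases past the stem-loop held 58.8%, and the 7 with no match in the window held 39.3%. The 13 members that end within 100 bases of the stem-loop held 1.3%, or 377 counts in 12 libraries, of which Hist1h4h gave 83%.

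How far transcripts without a poly(A) tail were counted bears on these shares. The methods for the LA libraries name a kit for mRNA, and also state that ribosomal RNA alone was removed. Among RNAs known to lack a poly(A) tail, Rmrp, the RNA of an endoribonuclease, had 0 counts in all 12 libraries. The telomerase RNA Terc had 0 or 1 count per library, and Rpph1, the RNA of ribonuclease P, had 0 to 2. The 7SK RNA Rn7sk had 17 to 183 counts. Sequence shared with other genes was not computed for these RNAs. A count of 0 allows up to 3 counts, or 0.11 to 0.14 CPM (counts scaled to a total of 1000000) in a single library. The part of library preparation in the low counts of members that end at the stem-loop was not tested.

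Members and names at 0 were also compared in how much of their sequence is found in other genes. For each name, the share of its 50-base windows found on neither strand of any other gene name's transcripts was computed. It had a median of 59.6% over the 49 members and of 10.2% over the 21 names at 0, 17 of which were under 25%. Hist2h2aa1, Hist2h2aa2, Hist2h3b and Hist2h3c1 had 0% and no count, and each is covered by other annotated genes on the same or the opposite strand. Hist1h2bq had 2.68% own windows and Hist1h2br 11.3%, and both were at 0. Larger shares were found in 4 names at 0 in every library, which were Hist1h2aa, with 76.2% own windows, Hist1h2ae, with 56.8%, Hist1h2ak, with 43%, and Hist1h2bf, with 34.2%. Over all 293681895 counts, 0 allows up to 0.0102 CPM for each of these names, a limit on counted reads alone. Hist2h2bb, an H2B gene with 0% own windows that another annotated gene covers on the opposite strand, had 16 counts. Copies outside annotated genes were not searched, and the part of shared sequence in the counts was not tested.

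**Figure D1:**
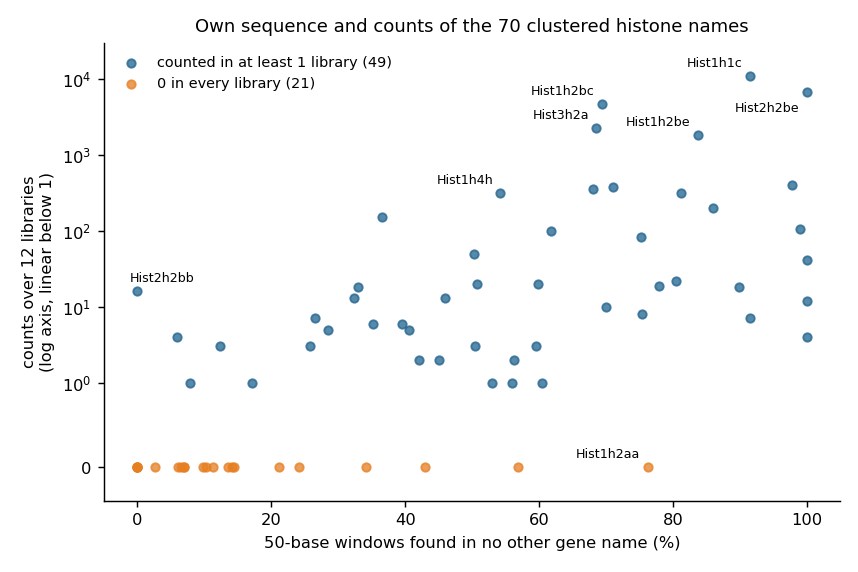
Each point is 1 of the 70 clustered histone names, with the share of its 50-base windows found in no other gene name on the horizontal axis (%) and its counts over 12 libraries on the vertical axis (logarithmic, linear below 1). Names at 0 in every library lie mostly at the left, below 25%, and the 5 most counted members lie between 68.5% and 100%.

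In every histone type the control and iNICD libraries overlapped, and no test was made of a type as a whole. The level of each type was taken as the sum of its members' normalized CPM, which are CPM of a library total adjusted by TMM (trimmed mean of M values). The sums were not divided by exon length. H1 summed to between 32.2 and 52.5 CPM in controls (median 41.1) and between 33.6 and 42.4 in iNICD (median 37.9). H2A ran from 4.76 to 11.6 (median 9.30) and from 7.13 to 9.91 (median 8.0). H2B ran from 37.3 to 59.6 (median 50.8) and from 38.7 to 48.1 (median 42.8). In each of these types all 6 iNICD libraries lay inside the control range, and control 5 was the lowest of all 12.

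H3 and H4 were counted far less. H3 ran from 0.736 to 1.4 CPM in controls (median 1.16) and from 0.573 to 1.75 in iNICD (median 0.711). Here 4 iNICD libraries lay below every control and iNICD 3 lay above every control. The margin was small: iNICD 4 was at 0.718 CPM from 19 counts and iNICD 2 at 0.704 from 16. The lowest controls were control 2 at 0.736 from 20 counts and control 6 at 0.739 from 16. iNICD 5 and iNICD 6 had 14 counts each. H4 ran from 1.47 to 5.16 (median 3.72) and from 1.78 to 2.87 (median 2.25), and control 2 was lower than every iNICD library. The iNICD to control ratio of means, on the log2 scale, was -0.13 for H1, -0.15 for H2A, -0.20 for H2B, -0.36 for H3 and -0.63 for H4, and -0.18 for all 49 members. Without iNICD 3 the H3 ratio was -0.70. Without control 5 the ratio for all members was -0.25 and that for H2A -0.28. In females alone the ratio was -0.22 for H2A, -0.10 for H3 and -0.84 for H4. In males alone it was 0.02 for H2A, -0.64 for H3 and -0.36 for H4. The only male controls were control 5 and control 6, with H2A sums of 4.76 and 11.1 CPM. The library with the high H3 sum, iNICD 3, was female. Without Hist2h3c2, the most counted H3 member, the H3 ratio was -0.72. The 13 members that end within 100 bases of the stem-loop had 0.516 to 2.96 CPM in controls (median 1.64) and 0.365 to 1.31 in iNICD (median 0.925), with a ratio of -0.94. Only iNICD 1 was below every control in this sum, of which Hist1h4h made up 83%. Over the 34 members with at most 1000 exon bases the ratio was -0.76. In the H2A members among them it was -1.26, but none of these had more than 18 counts over the 12 libraries.

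**Figure D2:**
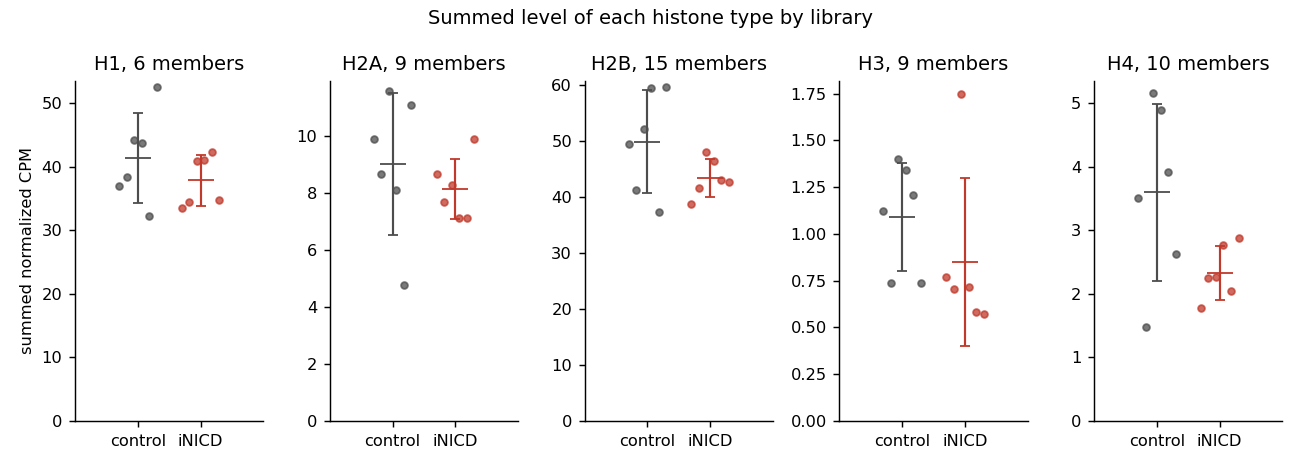
Summed normalized CPM of the members of each histone type (vertical axes, from 0, each with its own scale) in 6 control and 6 iNICD left atria. Points are libraries and bars are mean ± SD (n = 6), and the groups overlap in every type, with 1 H3 value of 1.75 CPM (iNICD 3) above all others.

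Of the members, 9 exceeded 1 CPM in 6 or more libraries and were compared gene by gene. The quasi-likelihood test of edgeR was fitted to all 13541 names above this level, of which 558 were called at a Benjamini-Hochberg adjusted p under 0.05 (4.12%). Of the 9 members, 0 were called by edgeR and 0 by DESeq2, against 7.82% of names called by DESeq2. At an unadjusted p under 0.05 edgeR gave 1 member, Hist1h4i, against 17.4% of all names, and DESeq2 gave the same member. All 9 log2 fold changes were below 0, from -0.87 to -0.05 with a median of -0.29, while 51.3% of all tested names were below 0 and their median was -0.01. The exception over all settings was Hist1h2bc, which was at 0.04 with control 4 left out and at 0.04 in females alone.

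Among the linker histones, Hist1h1c (H1.2) was the most abundant member, with 30.5 to 48.7 CPM in controls (median 38.0) and 31.4 to 39.4 in iNICD (median 35.5). The iNICD libraries lay within the control range, and the mean was 38.3 ± 6.75 in controls and 35.5 ± 3.35 in iNICD (SD, n = 6). The log2 fold change of -0.11 had a 95% interval of -0.35 to 0.13 (adjusted p = 0.658), so that a level between 0.786 and 1.1 of that in controls is compatible with the data. It was -0.16 without control 5 and -0.03 without control 6. Hist1h1e (H1.4) had 0.607 to 1.90 CPM in controls (median 1.39) and 0.770 to 1.64 in iNICD (median 0.910). Its groups overlapped, with a log2 fold change of -0.44 (interval -1.02 to 0.15), which was -0.62 without iNICD 3 and -0.33 without control 3.

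Hist1h1e shares exon bases on the same strand with Hist1h2be, and reads in them belong to neither under the counting described. Hist1h1a (H1.1) had 0.0413 to 0.231 CPM in controls and 0 to 0.375 in iNICD. Hist1h1d, chosen after its values were seen, was the most uneven member of its type. It reached 4.05 CPM in control 2 and 2.49 in iNICD 4, and its lowest values were 0.434 in control 4 and 0.396 in iNICD 2.

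Hist3h2a accounted for 90.3% of H2A counts. It had 4.06 to 10.6 CPM in controls (median 8.43) and 6.09 to 9.34 in iNICD (median 7.27). Every iNICD library lay inside the control range, and the log2 fold change was -0.16 (SE 0.20, interval -0.59 to 0.28). It was -0.29 without control 5 and -0.07 without control 3. Its exons overlap those of Trim17 by 708 bases on the same strand, and 68.5% of its windows were its own. The next H2A member, Hist1h2ac, had 0.374 to 0.847 CPM in controls (median 0.706) and 0.246 to 1.22 in iNICD (median 0.740), where 3 libraries were above and 2 below every control. Hist1h2al had 13 counts in all, of which the most fell in iNICD 6 (0.246 CPM). Hist1h2ah had 1 count and was not compared.

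Hist2h2be was the most counted H2B gene, with 16.5 to 32.6 CPM in controls (median 25.2) and 16.7 to 25.4 in iNICD (median 21). All of its windows were its own. The iNICD libraries lay within the control range, the mean was 24.9 ± 6.08 in controls and 20.8 ± 3.19 in iNICD (SD, n = 6), and the log2 fold change was -0.26 (SE 0.16, interval -0.60 to 0.08). It was -0.35 without control 5 and -0.17 without control 6. Hist1h2bc had 12.4 to 20.9 CPM in controls (median 15.4) and 13.3 to 16.9 in iNICD (median 15.4). Its medians were equal and its log2 fold change was -0.05 (SE 0.12, interval -0.30 to 0.20), with -0.12 when control 2 was left out.

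Hist1h2be had 2.94 to 8.88 CPM in controls (median 7.35) and 3.77 to 6.77 in iNICD (median 5.61), and Hist1h2bh had 0.560 to 1.57 and 0.692 to 1.19. Both log2 fold changes were -0.29, and in both members control 5 was the lowest library. Without control 5 Hist1h2be was at -0.44 and Hist1h2bh at -0.43, and the smallest changes with 1 library left out were -0.20 for Hist1h2be, without control 1, and -0.19 for Hist1h2bh, without control 6. The Hist3 cluster gave little H2B: Hist3h2ba had 0 to 0.124 CPM in controls and 0 to 0.205 in iNICD, and the pseudogene Hist3h2bb-ps had 0 to 0.0826 and 0 to 0.0880. Hist1h2ba, the H2B gene known from testis and chosen here after its values were seen, had 0 to 1.16 CPM in controls (median 0.517) and 0 to 0.474 in iNICD (median 0.132). It was at 0 in control 2 and in iNICD 1, 2 and 5.

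**Figure D3:**
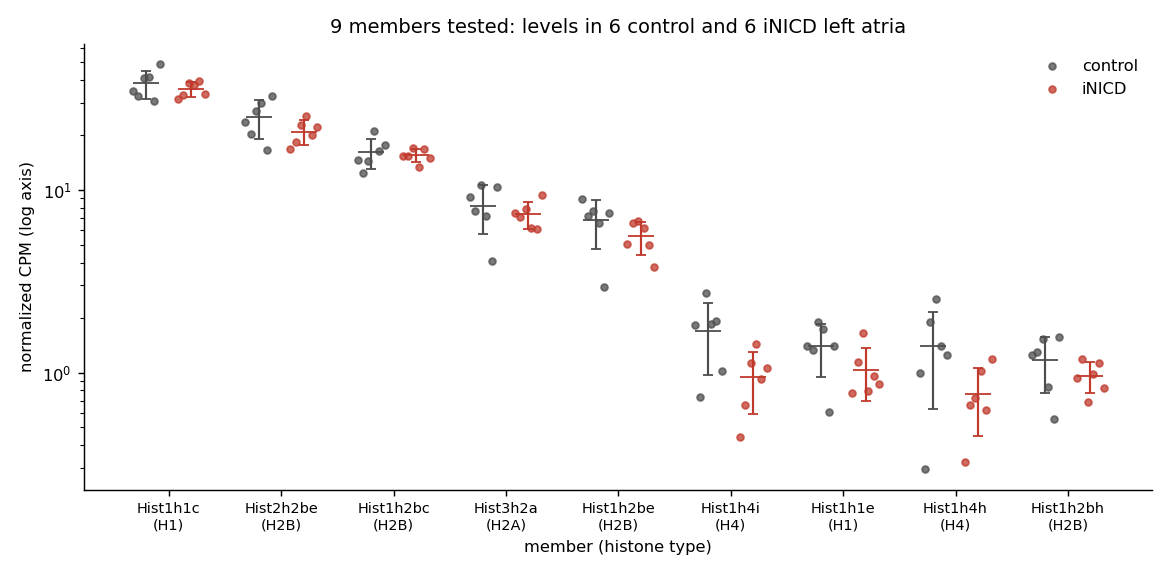
Normalized CPM (logarithmic axis) of the 9 tested members in 6 control and 6 iNICD left atria. Points are libraries and bars are mean ± SD (n = 6), and in each member the groups overlap, least so in Hist1h4i (2 iNICD libraries below every control).

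The H3 members were all below the filter of 1 CPM. Hist2h3c2 gave 52.3% of H3 counts, with 0.405 to 0.702 CPM in controls (median 0.467) and 0.334 to 0.874 in iNICD (median 0.425), and its log2 fold change in the fit over all names with at least 10 counts was -0.04 (interval -0.66 to 0.58). Hist1h3d had 0.147 to 0.631 CPM in controls (median 0.347) and 0.0811 to 0.583 in iNICD (median 0.124). In this gene 4 iNICD libraries, with 2 or 3 counts each, lay below every control, the lowest of which had 4 counts. In contrast, iNICD 3 was near the top of the control range, and the log2 fold change was -0.70 (interval -1.82 to 0.41). Hist1h3g had 13 counts over all libraries and at most 0.118 CPM.

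The H4 genes gave the lowest p values of the tested members. Hist1h4i had 0.736 to 2.72 CPM in controls (median 1.84) and 0.446 to 1.44 in iNICD (median 0.991). iNICD 1 and iNICD 2 lay below every control, and the other 4 iNICD libraries lay between control 2, at 0.736, and control 1. Its mean was 1.68 ± 0.711 in controls and 0.942 ± 0.352 in iNICD (SD, n = 6). The log2 fold change was -0.82 (SE 0.34, interval -1.55 to -0.10), with an unadjusted p of 0.0292, which did not pass adjustment over all names (edgeR adjusted p = 0.220). The exact two-sided permutation test over the 12 libraries gave p = 0.0433, before any adjustment.

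Hist1h4h had 0.295 to 2.52 CPM in controls (median 1.32) and 0.324 to 1.19 in iNICD (median 0.694). All iNICD libraries lay inside the control range. The log2 fold change was -0.87 (SE 0.42, interval -1.78 to 0.04; edgeR adjusted p = 0.310), and the exact two-sided permutation test gave p = 0.0887. Control 2 was the lowest control in both H4 genes and in Hist1h3d, and iNICD 1 the lowest iNICD library in all 3. With 1 library left out, Hist1h4i ran from -0.99 without control 2 to -0.63 without control 3, and Hist1h4h from -1.09 without control 2 to -0.61 without control 4. No H4 call was gained when any library was left out, where the lowest adjusted p was 0.103 for Hist1h4h and 0.115 for Hist1h4i. Of Hist1h4h windows 54.2% were its own, and Hist1h4j was the name it shared most windows with.

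Hist2h4 ran the other way. It had 0.0462 to 0.405 CPM in controls (median 0.258) and 0.189 to 0.932 in iNICD (median 0.372), and iNICD 1, iNICD 2 and iNICD 6 were above every control. Its log2 fold change was 0.89 (SE 0.48, interval -0.14 to 1.91; edgeR adjusted p = 0.433). Hist4h4, the single member on chromosome 6, had 7 counts in all, 0 to 0.124 CPM in controls and 0 to 0.0364 in iNICD, where 1 library had a count.

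Lowering the filter to at least 10 counts over the 12 libraries let 28 members be tested among 20871 names, of which edgeR called 551 (2.64%). It called 0 of the 28 members, and DESeq2 called 0 as well, against 1056 names (5.06%). At an unadjusted p under 0.05 there were 2 members by edgeR, Hist1h4i and the H2A gene Hist1h2ad, and 2 by DESeq2, Hist1h4i and Hist1h4h, against 14.2% of all names by edgeR and 14.8% by DESeq2. Hist1h2ad had 18 counts, at 0 to 0.187 CPM in controls and 0 to 0.0440 in iNICD (log2 fold change -1.69, interval -3.33 to -0.06, edgeR adjusted p = 0.331). Of the 28, 20 were below 0 and 8 above, with a median of -0.28, beside 50.6% below 0 among all names tested. No member with at least 10 counts had groups that did not overlap, against 2.8% of names. These 28 passed the filter on their total over both groups.

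**Figure D4:**
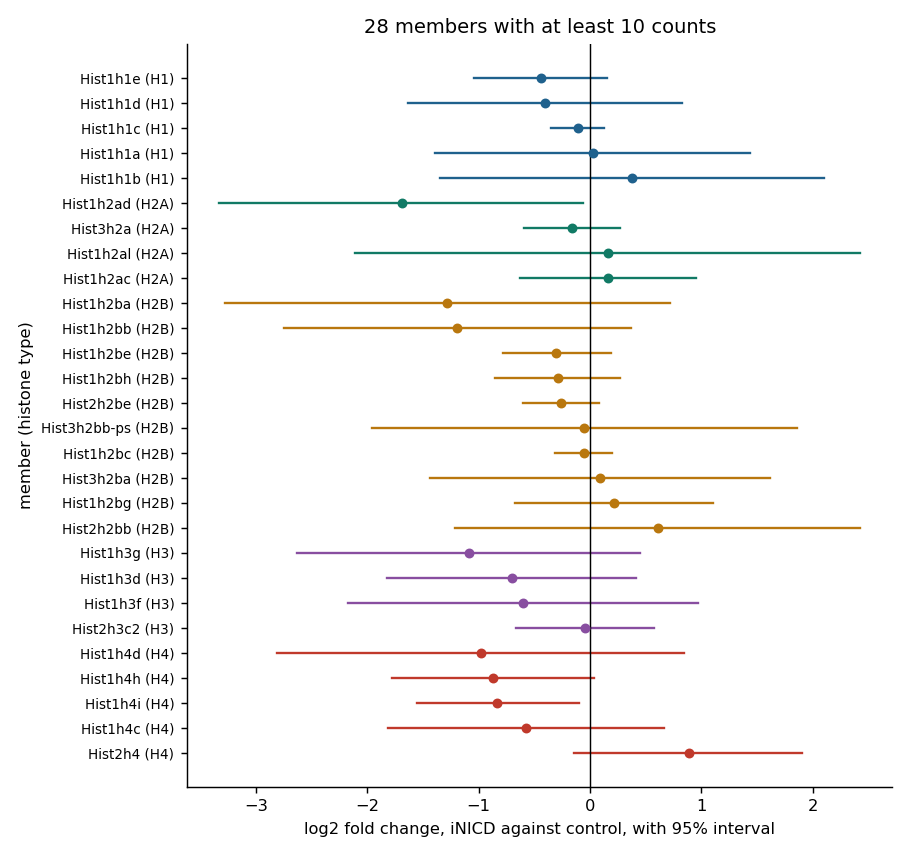
The log2 fold change of iNICD against control for the 28 members with at least 10 counts, by histone type. Points are edgeR estimates and lines their 95% intervals, and the interval excludes 0 for Hist1h4i and Hist1h2ad, neither of which passed the adjustment over all names.

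The intervals set what these counts could show. Over the 34 members with under 50 counts, the spread of libraries about their group rate was near that of counting alone (median chi-square per degree of freedom 0.964, range 0.398 to 2.94). Over the 15 members with at least 50 counts it had a median of 7.01 and reached 23.1 in Hist1h1d and Hist2h2be, so the libraries of one group differed by far more than counting error. A change of the size fitted for Hist1h4h was within the spread of the controls. The sexes were also compared: in the sex by genotype interaction 0 of 9 members were called by edgeR and 0 had an unadjusted p under 0.05, among 13541 names with 0 called and 501 at that p.

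Genes of the histone mRNA pathway were read beside the members. Of 22 genes for histone transcription and 3′ end formation, 21 were tested, 1 rose and 0 fell, where 4.12% of all names were called. At an unadjusted p under 0.05 there were 2, against 17.4% of all names. The gene that rose was Lsm11, the U7 subunit named above. Lsm11 had 8.26 to 11.6 CPM in controls (median 9.12) and 18.1 to 31.5 in iNICD (median 21). All 6 iNICD libraries lay above every control, with iNICD 1 and iNICD 4 the highest. The log2 fold change was 1.28 (SE 0.16, interval 0.94 to 1.63; edgeR adjusted p = 4.59e-04), and it was 1.18 to 1.35 with any 1 library left out. It passed in 28 of 29 fits; the exception was the fit of males alone (adjusted p = 0.532 by edgeR), in which 8 names were called in all and Lsm11 was at 1.19 (SE 0.28).

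The other U7 subunit, Lsm10, had 3.22 to 6.97 CPM in controls and 4.34 to 6.37 in iNICD, with a log2 fold change of -0.10 (interval -0.48 to 0.28). Slbp had 9.79 to 13.4 and 10.3 to 14.3 CPM (log2 fold change 0.04, interval -0.19 to 0.28). Npat, the coactivator of histone gene transcription, was at 0.16 (interval -0.06 to 0.38), and Casp8ap2 (FLASH), which works in both transcription and cleavage, at 0.13 (interval -0.17 to 0.42). The median of the 21 genes was -0.05.

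Replacement histone genes, which are expressed outside S phase and mostly carry a poly(A) tail, were counted at higher levels than most members. Of 11, 10 were tested and 0 were called by edgeR or DESeq2, where 4.12% and 7.82% of all names were called. At an unadjusted p under 0.05 there was 1, the stem-loop bearing H2afx, against 17.4% of all names. H1f0, the linker histone of resting cells, had 68.8 to 125.0 CPM in controls and 95.8 to 142.9 in iNICD, with a log2 fold change of 0.16 (interval -0.15 to 0.46). For the H3.3 genes, H3f3a was at -0.08 (interval -0.32 to 0.17) and H3f3b at -0.20 (interval -0.48 to 0.07), and H2afz, which encodes H2A.Z, was at 0.16 (interval -0.24 to 0.56). Of 18 histone chaperones and assembly factors, 17 were tested and 0 were called by either tool, against the same shares of all names. Their median was 0.00, and 1 had an unadjusted p under 0.05, Asf1b, at 0.59.

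Cycling genes were read beside the members library by library. Of 25 S phase and cycling genes, 24 were tested and 0 were called by edgeR or DESeq2 over all 12 libraries, against 4.12% and 7.82% of all names. In females alone Mki67 was called (log2 fold change 2.46, edgeR adjusted p = 0.0451). Both iNICD 1 and iNICD 3, the libraries with the highest Mki67, were female. At an unadjusted p under 0.05 there were 7, against 17.4% of all names, and 22 of the 24 were above 0 (median 0.17), where 51.3% of all names were below 0. Mki67, a marker of cycling cells, was at 17.5 CPM in iNICD 1 and 17.3 in iNICD 3 and at 1.11 to 4.75 in the other 10 libraries. Top2a, the topoisomerase of mitotic chromosomes, was at 24.9 and 22.3 against 0.924 to 4.72. The summed level of the 49 members was 83.5 CPM in iNICD 1 and 101.3 in iNICD 3, against 79.4 to 126.6 in the others, so that iNICD 1 ranked 11 and iNICD 3 ranked 4 of 12. Among the iNICD libraries iNICD 3 had the highest sum and iNICD 1 the lowest.

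By type, iNICD 1 ranked 11 in H1, H2B and H4, and 6 in H2A and H3. iNICD 3 ranked first in H3 and between 5 and 8 in the other types. In the 13 members that end within 100 bases of the stem-loop, iNICD 1 was the lowest library at 0.365 CPM, from 9 counts, and iNICD 3 was at 1.09, where the others had 0.516 to 2.96. Without both libraries 0 of 9 members were called by edgeR, where 259 of 13541 names were called. In that setting the ratio of summed levels was -0.18 over all members as before, and the H3 ratio was -0.76. Pcna, a polymerase clamp of S phase, ranked 1 in iNICD 1 at 20.7 CPM and 3 in iNICD 3 at 17.9.

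**Figure D5:**
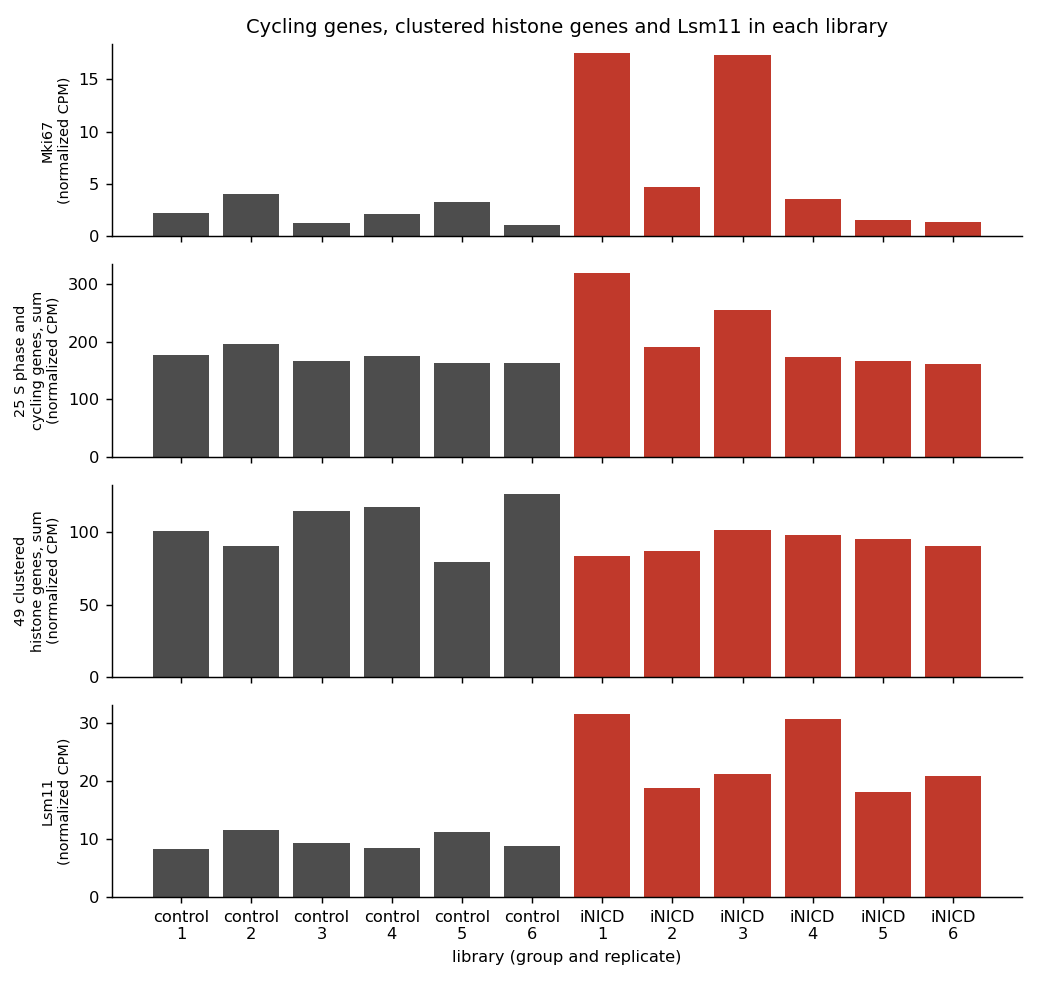
Normalized CPM (vertical axes, from 0) of Mki67, the sum of 25 S phase and cycling genes, the sum of the 49 clustered histone genes and Lsm11 in each of 12 libraries (6 control in grey, 6 iNICD in red). The 2 libraries at 17.5 and 17.3 CPM of Mki67 hold histone sums of 83.5 and 101.3 CPM, within the range of the other 10, while Lsm11 is higher in all 6 iNICD libraries.

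Cell type markers were also compared. Of 6 cardiomyocyte markers, 3 fell by edgeR (Tnnt2, Myl7 and Nppa), where 4.12% of all names were called in either direction. Myl7 did not pass when control 1, 3, 4 or 6 or iNICD 1, 2, 3 or 4 was left out (edgeR adjusted p up to 0.0846), and Myh6 was at -0.03 (interval -0.21 to 0.14), Ryr2 at 0.07 (interval -0.22 to 0.37) and Actc1 at -0.46 (interval -1.07 to 0.16). The summed level of the 6 markers was 76807 to 100562 CPM in controls and 52053 to 63595 in iNICD. Most of this difference was Nppa, with a mean of 24172 ± 3858 CPM in controls and 4811 ± 2056 in iNICD (SD, n = 6). All 6 were present in every library at over 1000 CPM, as the labelled tissue requires. The 4 erythroid markers summed to 53.3 to 233.0 CPM in controls and 24.4 to 130.3 in iNICD. By edgeR 0 were called and all 4 had an unadjusted p under 0.05, against 4.12% and 17.4% of all names. In other fits Hbb-bs was called without iNICD 5 (edgeR adjusted p = 0.0499), by the exact test of edgeR and by DESeq2 with the filter of 10 counts, Hba-a2 was called with sex as a covariate, and Alas2 was called by DESeq2 under both filters. In the 7 lists for fibroblasts, endothelium, smooth muscle, leukocytes, lymphocytes, epicardium and adipocytes, 0 genes were called by edgeR. Of their tested genes 0 had an unadjusted p under 0.05. The shares of all names were again 4.12% and 17.4%. No marker of any list was at 0 in all libraries. In whole LA RNA, fewer cells of a type cannot be told apart from less RNA per cell, and the part of cell content in the histone levels was not tested.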

How the data were processed

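Whole left atria of 6 iNICD and 6 control mice were sequenced, 1 library each. The deposited table holds read counts for each gene name, raw and without normalization. Per the labels, reads were trimmed with cutadapt, aligned to mm10 with STAR 2.4.2a and counted with featureCounts. The methods describe a route with TopHat2 and HTSeq for the LA. For the comparison of right and left atrium they describe another, with a different STAR version and Subread. The table does not name its own route. The deposited table also gives a length in bases per name. Whether strand was used in counting is not given in the sources used here. Groups, replicate numbers and sex came from titles and descriptions. p-values measure the spread between these 12 animals.

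Names above 1 CPM in 6 or more libraries were compared with edgeR 4.0.16 (quasi-likelihood, R 4.3.3) after TMM scaling, two-sided, with Benjamini-Hochberg adjustment at 0.05 over all names tested, a method tested on simulated data beforehand. A second fit took names with at least 10 counts. Intervals are 95% from the standard error and the moderated degrees of freedom. DESeq2 1.42.0, other scalings, filters, sex, replicate blocks, single sexes and left-out libraries were alternatives. Single values were also permuted exactly over 924 arrangements, two-sided, with a smallest possible p of 0.00216.

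Histone positions and transcripts are from GENCODE M21 (GRCm38); the table's lengths equalled its exon unions for all 70 names. Promoters are RefSeq's, GRCm38.p6, matched through synonyms for 61 names. Sequences were handled in Python 3.11.15. A pair of libraries of a group differed by a chi-square of at least 16.7 per gene, so none was a copy. Depth was 21432632 to 27182038 counts per library; limits for counts of 0 cover counting error only.

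Genes were named where they passed the test, were among the 3 members of a type with the highest level per kilobase, had groups that did not overlap, had the highest or lowest fold change of a type, or lay in Hist3 or Hist4; exceptions are stated. Members and lists were chosen with earlier results of these data known. Protein sequences were not used here.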

Additional observations from a re-analysis of the deposited data

Results flagged for a closer look

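Levels of the named members, the sums by type and the named companion genes were screened for a library far from the other 5 of its group, in 72 groups of 6. For normally spread values chance flags about 1 in 20 groups, or 3.6 here, and 7 were flagged. Groups near 0 counts need not follow that rate, because a single count beside 0 in the other libraries is always flagged. Hist1h3d is part of the H3 sum, so their flags are not independent. Among the members, Hist1h2al was at 0.246 CPM in iNICD 6 and 0 to 0.0417 in the other iNICD libraries. Hist1h3d was at 0.583 CPM in iNICD 3 against 0.0811 to 0.265, and Hist3h2ba at 0.205 in iNICD 6 against 0 to 0.0756. Hist4h4 was at 0.0364 CPM in iNICD 3, from 1 count, and at 0 in the other 5. The H3 sum was 1.75 CPM in iNICD 3 and 0.573 to 0.770 in the other iNICD libraries. Of the companion genes, H3f3b was at 143.1 CPM in control 5 against 81.3 to 92.5 in the other controls, and Pcna was at 20.7 CPM in iNICD 1 against 16.2 to 17.9.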

How the results depend on the processing

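No clustered histone member was called at an adjusted p under 0.05 by edgeR or DESeq2 in any of 28 settings, which tested 9 to 49 members. This included scaling by RLE, by upper quartiles or by library totals, the exact test of edgeR, 3 other filters, sex as a covariate, each sex alone, totals without mitochondrial genes and each library left out in turn, with 0 members at the lowest and the highest. Over all names the settings called from 8, in males alone, to 1059, by DESeq2, so some could call few genes of any kind. No paired result was used: libraries with the same replicate number did not all deviate together (correlations of -0.153 to 0.372 under the titles), and with the replicate block 0 members and 468 names were called under the title numbers, and 0 members and 421 names under those of the descriptions. Over 162 refitted fold changes of the 9 named members with a test, 1 changed sign, Hist1h2bc without control 4; in females alone, fitted beside these, Hist1h2bc was at 0.04 as well.

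Sums of a type depended on which members entered. With members of at most 1000 exon bases the log2 ratio was -0.76 over all types, 0.11 for H1, -1.26 for H2A and -0.65 for H2B. None of these H1 members had more than 41 counts over the 12 libraries, and none of the H2A members more than 18. Without Hist1h1c the ratio was -0.38 for H1, and the cause of these differences was not tested. With any 1 library left out the ratio was -0.25 to -0.12 over all members, -0.19 to -0.05 for H1, -0.28 to -0.07 for H2A, -0.27 to -0.14 for H2B, -0.70 to -0.27 for H3 and -0.79 to -0.50 for H4. Among the companion lists 1 histone mRNA processing gene and 0 genes of the other 3 lists were called under DESeq2, the title block, the filter of 10 counts, each library left out and both iNICD 1 and iNICD 3 left out. In the further fits of all names, Mki67 was called in females alone, which included iNICD 1 and iNICD 3. Lsm11 was not called in males alone. With 75-base windows the median own share of the members was 65.5% in place of 59.6%. The settings without both iNICD 1 and iNICD 3, and the split by annotated transcript end, were chosen after seeing the data. Depth limits many members: 21 of 49 had under 10 counts in all.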
